A study of Cocos nucifera with 22 samples.

Results

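Coconut leaves sampled 10 days after the start of salt treatment were compared with leaves sampled after 6 days, over both varieties together. The comparison used 10 of the 22 RNA-seq libraries of the series, which were selected on their labelled variety and time. Hainan tall gave 3 libraries at 6 days and 2 at 10 days, and Aromatic dwarf gave the same numbers. The other 12 libraries, from 0 h and 4 h, entered the fit only to estimate the spread and the flow cell effect. Both times were under 200 mM NaCl, given weekly in a nutrient solution to seedlings in containers in a greenhouse. A second irrigation with the same solution was given on day 7, so leaves at 10 days had received salt once more, 3 days before sampling. No unsalted leaves of these ages are described. Salt, the second irrigation, the age of the leaf and the hour of sampling, which is not given for these days, therefore cannot be told apart. According to the methods, samples with the same number came from the same leaf, so the times share leaves, and the spread is that between the 3 leaves of a variety. RNA was extracted from leaf tissue in bulk, so fewer cells of a type and less RNA per cell cannot be told apart.

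Salt in the root zone first limits water uptake, and leaves respond through abscisic acid (ABA), a hormone that closes stomata. When salt is given over days, sodium and chloride also build up in leaf cells. Leaves under such stress are known to adjust small heat shock proteins, which hold unfolding proteins in solution, and the phenylpropanoid and flavonoid pathway, which turns phenylalanine into lignin precursors, flavonols, anthocyanins and condensed tannins.

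The 10 libraries had 3061624 to 3445467 expected counts each, and 21136 to 21825 genes were listed per library. Levels are given below as FPKM, the deposited expression value scaled by gene length and by library size. Changes from 6 to 10 days are on the log2 scale, with a standard error (SE), as fitted by edgeR's quasi-likelihood test to the rounded expected counts, and a gene was called when its Benjamini-Hochberg adjusted p was under 0.05 over the 18840 genes tested. All 4 libraries of 10 days were sequenced on flow cell AW, whereas 3 of the 6 libraries of 6 days were on flow cell AV (tall replicates 1 and 2, dwarf replicate 1). The flow cell was a term of the fit. Product names were known for 738 genes of a list whose expression columns cover the tall libraries, those of 6 and 10 days included. All 738 passed the filter on low counts, and 2.71% of them were called over both varieties, against 0.696% of the other genes. The study chose the genes of this list by their levels in the tall libraries. That all 738 passed the filter and that a larger share of them was called were therefore favoured in advance and are no result about these genes.

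Between 6 and 10 days, 63 genes rose and 83 fell in the mean over both varieties, which is 0.334% and 0.441% of the genes tested, together 0.775%. The median change was 1.02 for the genes that rose and -1.09 for those that fell, against -0.02 for all genes tested. At least a 2-fold change was reached by 33 of the rising and 48 of the falling genes. The FPKM values of the 4 libraries of 10 days lay above those of all 6 libraries of 6 days for 49 of the rising genes, and below them for 48 of the falling genes. Over all genes tested, 2.35% were entirely above and 1.24% entirely below. Only 20 of the 146 called genes had a product row, 2 of them named only as conserved hypothetical proteins, so the remaining 126 could not be described by function.

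The number of calls differed between fits and with the libraries left out. With the 10 libraries alone, 10 genes (0.0576%) were called, and with flow cell AW alone, 2 (0.0112%) were called. Both fits leave few residual degrees of freedom and estimate a time term shared by both varieties. In these fits 144 of the 145 called genes that could be fitted kept their direction at an unadjusted p under 0.05, which is a description, since the genes had been chosen on the same libraries. Without dwarf 10 days replicate 2, 24 genes were called, and without tall 10 days replicate 1, 25 were called. Without dwarf 6 days replicate 1 the number was 271, and without dwarf 6 days replicate 2 it was 53. The leaf as a block gave 160 calls (0.849%), 101 of them shared with the 146.

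**Figure D1:**
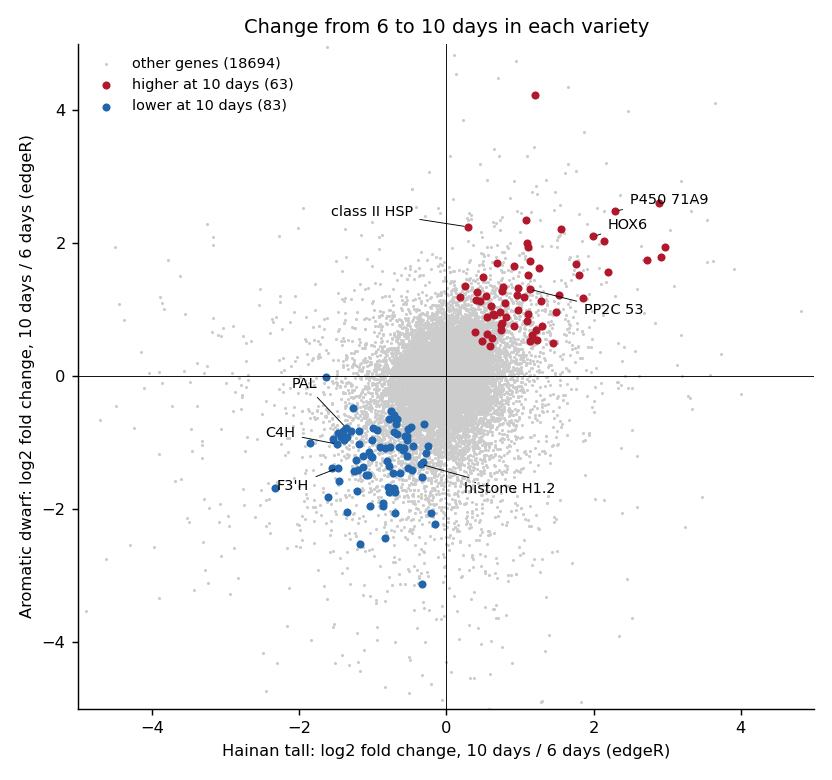
Each point is 1 gene, with its log2 fold change from 6 to 10 days in Hainan tall on the horizontal axis and in Aromatic dwarf on the vertical axis; red and blue points are the 63 and 83 genes called higher and lower over both varieties, and 65 genes, 1 of them called, lie outside the axes. Called genes lie in the corners where both varieties moved the same way, which their selection on the mean over both varieties favours; PAL is phenylalanine ammonia-lyase, C4H trans-cinnamate 4-monooxygenase and F3'H flavonoid 3'-monooxygenase.

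Among the genes with a product name, the largest increases were those of cytochrome P450 71A9, the homeobox-leucine zipper gene HOX6, a class II small heat shock protein, a photosystem I subunit and protein phosphatase 2C 53. HOX6 (CN01_07G006410, chromosome 7, positions 17534533 to 17535804 of assembly ASM812446v1) encodes a transcription factor of a family known for roles in water deficit. Its FPKM in the tall was 58.4, 49.4 and 27.2 at 6 days and 154 and 133 at 10 days. In the dwarf it was 16.6, 14.8 and 19.2 at 6 days and 53.1 and 75.4 at 10 days. Within each variety the times did not overlap, although dwarf 10 days replicate 1 was below tall 6 days replicate 1. The change was 2.05 (SE 0.30, edgeR adjusted p = 0.0047), with similar values in the tall (2.0) and the dwarf (2.1). HOX6 was called in each of the 20 other fits that were run, and its change ranged from 1.71 to 2.15 in them. The other called genes with a product name were called in fewer of these fits. The class II small heat shock protein was called in 18, cytochrome P450 71A9 in 15 and the photosystem I subunit in 10. Protein phosphatase 2C 53 and leucoanthocyanidin dioxygenase were called in 9 each, and polyubiquitin 11 in 7.

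Cytochrome P450 71A9 (CN01_scaffold000076G000010), a monooxygenase of a family that modifies secondary metabolites, changed more. The tall libraries had 25.9, 111 and 29.4 FPKM at 6 days and 325 and 268 at 10 days. The dwarf libraries had 36.2, 35.2 and 47.0 FPKM at 6 days and 194 and 254 at 10 days. Every library of 10 days was above every library of 6 days, and tall 6 days replicate 2 stood apart within its group. The increase was 2.39 (SE 0.45, edgeR adjusted p = 0.0228). A second gene with the same product name (CN01_12G003850) had a change of -0.41 and was not called (adjusted p = 0.69), so the increase was not shared by both copies in the list.

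Protein phosphatases 2C of group A are negative regulators of ABA signalling in Arabidopsis. Protein phosphatase 2C 53 (CN01_14G000430, chromosome 14, positions 1153678 to 1159984) had 45.9, 58.5 and 34.6 FPKM in the tall at 6 days and 84.5 and 112 at 10 days. In the dwarf it had 28.9, 36.2 and 29.6 FPKM at 6 days and 74.5 and 76.6 at 10 days. The libraries of 10 days were all above those of 6 days, and the increase was 1.22 (SE 0.25, edgeR adjusted p = 0.0298). The mean of the 2 tall libraries of 10 days was 98.5 FPKM, beside 110 ± 46.8 (SD, n = 3) at 0 h. The mean of the 2 dwarf libraries of 10 days was 75.5 FPKM, beside 47.1 ± 8.13 (SD, n = 3) at 0 h. At 10 days the mean was therefore below that of 0 h in the tall and above it in the dwarf. Neither difference from 0 h was tested here. The study describes the phosphatase gene that it discusses for the ABA pathway, on chromosome 14, as downregulated at every stage. The study's calls compare each time with 0 h by NOISeq, with limits on FPKM and fold change, and were not repeated here. The other listed phosphatase of this class, protein phosphatase 2C 16, had a change of 0.39 and was not called (adjusted p = 0.32), and its libraries of 10 days were also all above those of 6 days.

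Of 25 listed heat shock proteins and co-chaperones, 3 rose and none fell, which is 12% of the list against 0.334% of all genes tested. Of the 738 genes with a product name, from which the list was drawn, 9 rose and 2.71% were called in either direction. The list was also made with earlier results of these data known, so its counts have no independent support here. Positive changes were fitted for 21 of the 25, and the median of the list was 0.42, or 0.22 without dwarf 10 days replicate 1. The 3 genes encode cytosolic small heat shock proteins of different classes. The class II gene (CN01_scaffold007600G000070) had 297, 371 and 316 FPKM in the tall at 6 days and 506 and 497 at 10 days. In the dwarf it had 173, 204 and 138 FPKM at 6 days and 930 and 867 at 10 days. The dwarf therefore lay below the tall at 6 days and above it at 10 days. At 0 h the means were 325 FPKM in the dwarf and 182 in the tall. The increase from 6 to 10 days over both varieties was 1.27 (SE 0.21, edgeR adjusted p = 0.0093).

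The class I gene (CN01_02G006280) had 73.3, 68.7 and 40.5 FPKM in the tall at 6 days and 71.8 and 103 at 10 days, so the times overlapped there. The dwarf had 34.7, 59.7 and 71.8 FPKM at 6 days and 215 and 121 at 10 days, with no overlap. Its increase was 1.19 (SE 0.24, edgeR adjusted p = 0.027). The class III gene (CN01_03G004950, chromosome 3, positions 47441340 to 47441916) had 160, 149 and 163 FPKM in the tall at 6 days and 256 and 321 at 10 days. The dwarf had 74.2, 69.8 and 119 FPKM at 6 days and 187 and 162 at 10 days. The libraries did not overlap within a variety, and the increase was 0.79 (SE 0.15, edgeR adjusted p = 0.0234).

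Larger chaperones had positive changes that were not called. A DnaJ co-chaperone (CN01_scaffold000873G000020) had a change of 0.72 (SE 0.17, edgeR adjusted p = 0.0566), the highest-ranked of them. Heat shock 70 kDa protein (CN01_12G007620) and the disaggregase ClpB1 (CN01_06G004430), chosen here after their values were seen, had changes of 0.68 and 0.69. The heat shock factor in the list, A-2c, had a change of -0.02. With 1 library left out at a time, 1 to 4 genes of the list rose, 1 of them when tall 6 days replicate 3, either tall library of 10 days, dwarf 6 days replicate 2 or dwarf 10 days replicate 1 was left out. With the 10 libraries or flow cell AW alone edgeR called none, with 6 and 9 genes higher at an unadjusted p under 0.05. Over all genes of these fits, 2000 of 17375 and 1807 of 17815 had such a p in either direction. DESeq2 called 4 of the list higher, beside 17 of the 738 genes with a product name.

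**Figure D2:**
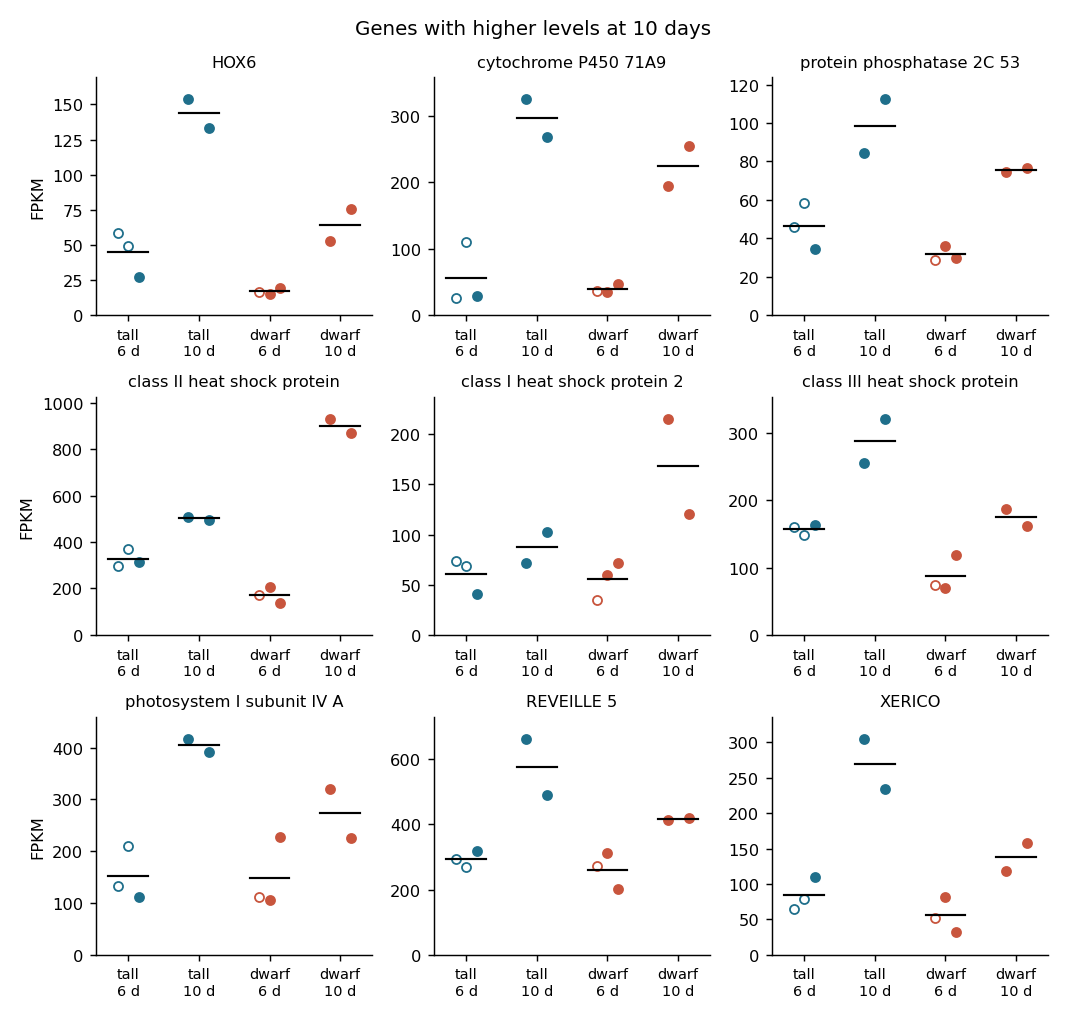
FPKM of 9 genes in each of the 10 libraries, as points, with the mean of each group as a bar; open points are libraries from flow cell AV and filled points from flow cell AW. Most panels show the 10 day libraries above the 6 day libraries of the same variety, the class I heat shock protein overlaps in the tall and the photosystem I subunit in the dwarf; REVEILLE 5 and XERICO are shown beside the 7 called genes although they did not pass the test.

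Genes of the phenylpropanoid and flavonoid pathway had negative changes at nearly every step measured. Of 32 listed genes, 5 fell and none rose, which is 15.6% of the list against 0.441% of all genes tested, and 2.71% of the 738 genes with a product name were called in either direction. The median change of the list was -0.77, and 30 of its 32 genes had a negative change. The list was drawn from those 738 genes, whose expression columns cover the tall at these times, and it was made with earlier results of these data known, so the direction of its counts has no independent support here in either variety. In the dwarf alone 30 of the 32 changes were also negative and the median was -0.73, but no gene was called there by edgeR. An unadjusted p under 0.05 was found there for 14 of the 32, beside 3002 of the 18840 genes tested in either direction.

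The first enzymes of the pathway lead from phenylalanine to coumaroyl-CoA. Phenylalanine ammonia-lyase (CN01_10G000390, chromosome 10, positions 1517505 to 1521555), the entry enzyme, had 911, 927 and 817 FPKM in the tall at 6 days and 281 and 511 at 10 days. The dwarf had 610, 1004 and 727 FPKM at 6 days and 510 and 431 at 10 days. All libraries of 10 days were below all of 6 days, and the gene fell by 1.07 (log2, SE 0.19) with an adjusted p of 0.0165 in edgeR. A second gene for this enzyme (CN01_09G010210), chosen after its values were seen, had a change of -0.76 and was not called (adjusted p = 0.124).

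Trans-cinnamate 4-monooxygenase (CN01_12G006180), the next enzyme, had 318, 373 and 295 FPKM in the tall at 6 days and 84.8 and 174 at 10 days. The dwarf had 250, 343 and 324 FPKM at 6 days and 182 and 122 at 10 days. The times did not overlap, and it fell by 1.25 (SE 0.25, edgeR adjusted p = 0.0271). A second gene for the enzyme (CN01_contig69057496G000010), also chosen after its values were seen, had a change of -1.07 and also no overlap, with an adjusted p of 0.0827 in edgeR. RSEM divides reads between closely similar copies, so the split of a change between 2 genes of 1 enzyme is uncertain.

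The next steps build the flavonoid skeleton, and their values are given in pathway order, with genes beyond the 5 called chosen here after their values were seen. Chalcone synthase 2 (CN01_15G005920), which commits the pathway to flavonoids, had a change of -1.13 that was not called (adjusted p = 0.0796). Its tall libraries had 553, 619 and 720 FPKM at 6 days and 135 and 325 at 10 days, while in the dwarf 849, 1037 and 589 FPKM at 6 days overlapped with 668 and 543 at 10 days. A gene of the chalcone-flavonone isomerase family (CN01_12G006260) fell by 1.17 (SE 0.26, edgeR adjusted p = 0.0472). It had 407, 350 and 335 FPKM in the tall at 6 days and 97.8 and 194 at 10 days, and 327, 307 and 277 in the dwarf at 6 days and 207 and 118 at 10 days, with no overlap. Naringenin,2-oxoglutarate 3-dioxygenase (CN01_08G006920), which makes dihydroflavonols, had a change of -1.1 (adjusted p = 0.0854), and all its libraries of 10 days were below those of 6 days.

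Flavonoid 3'-monooxygenase (CN01_05G001950, chromosome 5, positions 5410899 to 5412698), which adds a hydroxyl group to the B ring, had the largest decrease of the called genes in the list. It had 164, 176 and 136 FPKM in the tall at 6 days and 61.9 and 90.5 at 10 days, and 87.5, 231 and 156 in the dwarf at 6 days and 62.8 and 67.3 at 10 days. It fell by 1.42 (SE 0.25, edgeR adjusted p = 0.0165), and the times did not overlap within a variety. Leucoanthocyanidin dioxygenase (CN01_07G008700), which makes anthocyanidins, was among the most abundant of these transcripts. It had 4344, 4352 and 3375 FPKM in the tall at 6 days and 1501 and 2229 at 10 days, and 2457, 4061 and 3102 in the dwarf at 6 days and 1832 and 1633 at 10 days. It fell by 1.18 (SE 0.26, edgeR adjusted p = 0.042), again with no overlap over all 10 libraries.

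Changes of 2 transcription factors of the list, chosen after their values were seen, were not called. MYB4, named in Arabidopsis for repressing phenylpropanoid genes, had a change of -1.28 (SE 0.35, edgeR adjusted p = 0.0895), and TT2, an activator of tannin synthesis in Arabidopsis, had -0.82 (adjusted p = 0.137). In all, 8 of the 32 genes had every library of 10 days below every library of 6 days, where 1.24% of all genes tested did. The number of genes that fell was 9 with the leaf as a block and 14 with DESeq2. DESeq2 called 2.29% of all genes, and 38 of the 738 genes with a product name as lower. The number that fell was 0 in edgeR with the 10 libraries or flow cell AW alone, where 21 and 16 genes were lower at an unadjusted p under 0.05, and 0 when tall 10 days replicate 1 or dwarf 10 days replicate 2 was left out. It was 2 without dwarf 6 days replicate 2 or dwarf 10 days replicate 1, and 3 without tall 6 days replicate 1 or 2, while the median stayed between -1.09 and -0.66 over the 10 fits with 1 library left out.

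**Figure D3:**
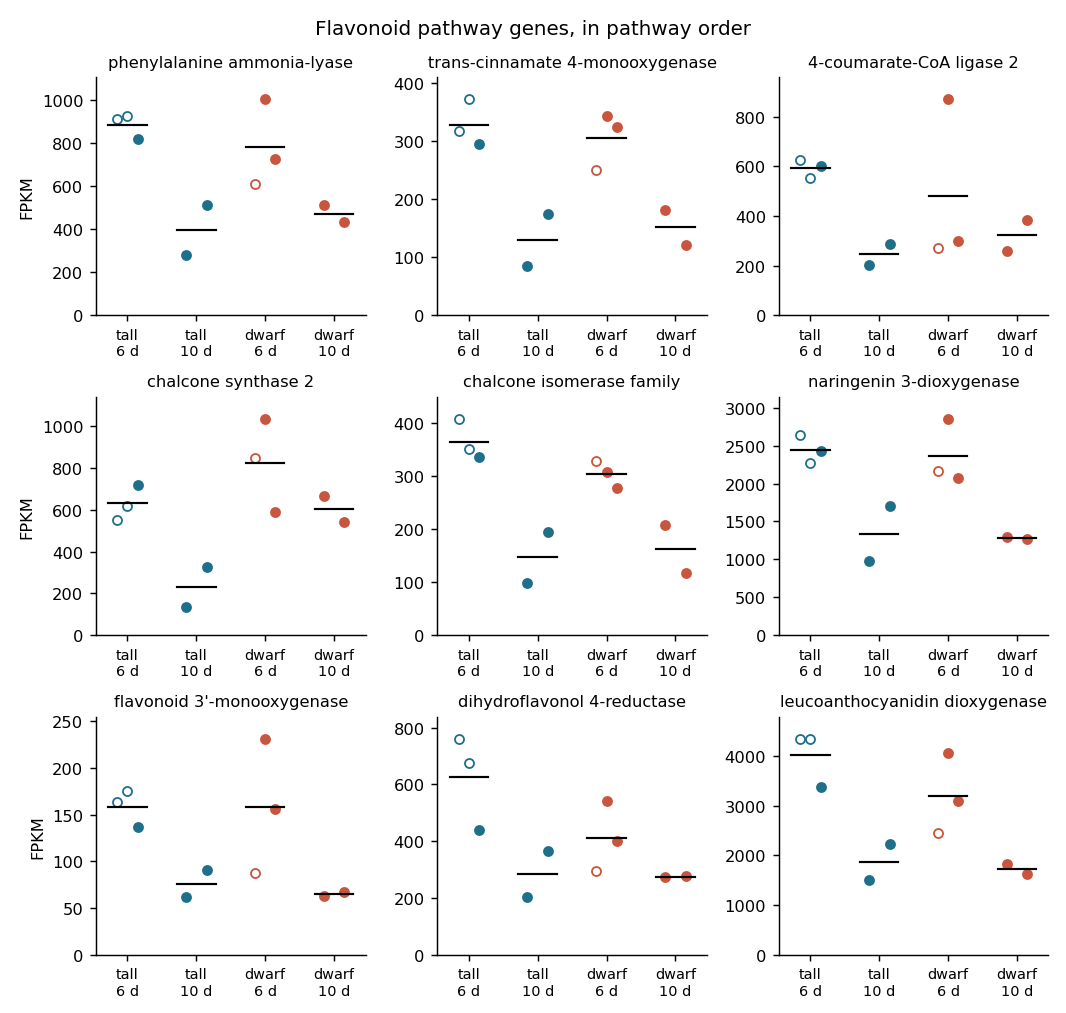
FPKM of 9 phenylpropanoid and flavonoid genes, ordered from the entry enzyme to anthocyanidin synthesis, in each of the 10 libraries as points, with group means as bars; open points are from flow cell AV and filled points from flow cell AW. The tall libraries of 10 days lie below those of 6 days in every panel, and in the dwarf chalcone synthase 2 and 4-coumarate-CoA ligase 2 overlap between the times.

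The remaining named genes that fell belong to different processes. Low-temperature-induced cysteine proteinase (CN01_03G013720) fell by 1.1 (SE 0.23, edgeR adjusted p = 0.0309), with 282, 238 and 229 FPKM in the tall at 6 days and 89.8 and 181 at 10 days, and 149, 184 and 183 in the dwarf at 6 days and 84.6 and 97.4 at 10 days. CDSP32 (CN01_contig69145767G000010), a chloroplast thioredoxin-like protein known for a role in oxidative stress, fell by 1.16 (SE 0.25, adjusted p = 0.0365). Adenosylhomocysteinase (CN01_02G014980), which removes the by-product of methylation reactions, fell by 1.04 (SE 0.23, adjusted p = 0.039). Acyl transferase 9 (CN01_03G016230) fell by 0.85 (SE 0.17, adjusted p = 0.0241) and polyubiquitin 11 (CN01_12G003540) by 0.77 (SE 0.17, adjusted p = 0.0378), and both had all libraries of 10 days below all of 6 days. With the leaf as a block the adjusted p of polyubiquitin 11 was 0.08. Histone H1.2 (CN01_03G002150), a linker histone, fell by 0.83 (SE 0.16, adjusted p = 0.0234). Its tall libraries overlapped, with 299, 349 and 474 FPKM at 6 days and 375 and 356 at 10 days, whereas the dwarf had 427, 508 and 397 at 6 days and 196 and 196 at 10 days.

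Photosystem I reaction center subunit IV A (CN01_scaffold002583G000010) was the only one of 60 listed light reaction genes that edgeR called. That is 1.67% of the list, against 0.775% of all genes tested and 2.71% of the 738 genes with a product name. The gene rose by 1.23 (SE 0.25, edgeR adjusted p = 0.0298). It had 133, 210 and 112 FPKM in the tall at 6 days and 417 and 392 at 10 days. In the dwarf, 112, 105 and 227 FPKM at 6 days overlapped with 321 and 225 at 10 days. The gene went against its list, since 51 of the 60 genes had a negative change and the median was -0.24, with values of -0.20 in the tall and -0.23 in the dwarf. With the leaf as a block its adjusted p was 0.055. DESeq2 called 1 gene of the list higher and 2 lower, beside 17 and 38 of the 738 genes with a product name.

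Of the remaining 18 lists of gene functions, edgeR called 1 gene each in 5 and none in 13. DESeq2 called further genes in some of the 13, the most being 4 lower in the list of cell wall, cytoskeleton and growth genes. Of its 33 genes, 8 were lower and 3 higher at an unadjusted p under 0.05 in edgeR. Over all 18840 genes tested these numbers were 1581 and 1216, and over the 738 with a product name 124 and 47. Cytochrome P450 71A9 rose in the list of terpene and P450 enzymes and protein phosphatase 2C 53 in that of the phosphatases, and the enzymes of reactive oxygen species, wax and fatty acid synthesis and the methyl cycle each had 1 gene that fell, namely CDSP32, acyl transferase 9 and adenosylhomocysteinase. The lowest median was that of 16 defence and lectin genes, at -0.96, where 14 changes were negative and edgeR called none, with 9 lower at an unadjusted p under 0.05 and 2 called by DESeq2. A gene with the product name ricin (CN01_08G006760) shows the spread within groups there, with 2440, 1539 and 202 FPKM in the tall at 6 days and 224 and 422 at 10 days, a change of -2.21 with an SE of 0.75 (adjusted p = 0.17). Of 14 circadian clock and flowering genes, 13 had a positive change with a median of 0.19, but without dwarf 6 days replicate 3 only 8 did, with a median of 0.069. In this list edgeR called none, with 2 higher at an unadjusted p under 0.05 and 1 called by DESeq2. REVEILLE 5 (CN01_08G007680), a clock-related transcription factor, had 293, 268 and 320 FPKM in the tall at 6 days and 663 and 491 at 10 days, and 271, 311 and 200 in the dwarf at 6 days and 414 and 421 at 10 days. Its change was 0.77 (SE 0.24, edgeR adjusted p = 0.139), and a morning gene of the clock, LHY (CN01_07G008390), had 0.50 (adjusted p = 0.126).

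**Figure D4:**
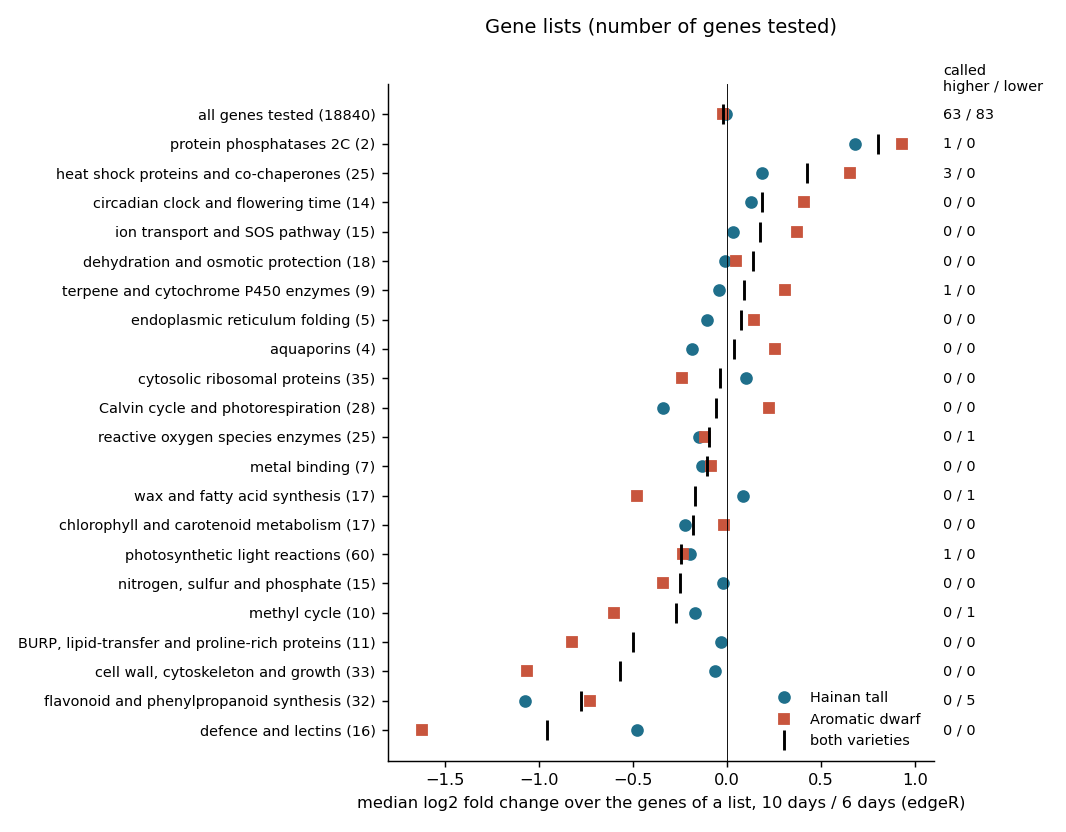
Median log2 fold change from 6 to 10 days over the genes of each list in Hainan tall (circles), Aromatic dwarf (squares) and both varieties (bars), with the number of genes tested in brackets and the numbers called higher and lower at the right. The flavonoid list is low in both varieties, at -1.07 in the tall and -0.73 in the dwarf, whereas the cell wall list had a median of -1.06 in the dwarf and -0.06 in the tall, a difference that was not tested for the list.

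Of the genes that the study assigned to signalling pathways, 1 of 44 in the ABA pathway rose (2.27%, against 0.334% of all genes tested). Of the 738 genes with a product name, from which these pathway genes come, 9 rose and 2.71% were called in either direction. DESeq2 called 2 of the 44 higher and 1 lower, beside 17 higher and 38 lower of the 738 genes. No gene was called by edgeR or DESeq2 among 8 in the reactive oxygen species pathway and 5 in the SOS (salt overly sensitive) pathway. In edgeR, 2 and 0 of these had an unadjusted p under 0.05. The ABA gene encodes a conserved hypothetical protein (CN01_15G001640). It had 34.0, 35.6 and 28 FPKM in the tall at 6 days and 122 and 94.9 at 10 days, and in the dwarf 28.4, 28.8 and 56.8 at 6 days and 58.2 and 54.2 at 10 days. It rose by 0.98 (SE 0.17, edgeR adjusted p = 0.0165), with fitted changes of 1.45 in the tall and 0.50 in the dwarf (adjusted p = 0.576 for the difference in edgeR). XERICO (CN01_01G013650), a ubiquitin ligase that raises ABA levels in Arabidopsis, had 64.2, 78.9 and 110 FPKM in the tall at 6 days and 305 and 234 at 10 days, and 52.4, 81.8 and 32.5 in the dwarf at 6 days and 119 and 158 at 10 days. The libraries of 10 days were all higher, but its change of 1.2 had an SE of 0.33 and an adjusted p of 0.0895 in edgeR.

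Apart from protein phosphatase 2C 53, the genes that the study discusses for salt were not called. Chloroplast Cu-Zn superoxide dismutase (CN01_08G010630), which removes superoxide, had 440 to 581 FPKM over the tall libraries of 6 days and 489 and 479 at 10 days, and its change over both varieties was -0.24 (SE 0.14, edgeR adjusted p = 0.474). The potassium channel AKT2 (CN01_01G020060) ranged from 243 to 605 FPKM among the tall libraries of 6 days alone, and its change was 0.18 (SE 0.36, adjusted p = 0.875). The metallothionein-like gene of type 3 (CN01_14G002700) ranged from 1961 to 16828 FPKM over the 6 libraries of 6 days and from 4886 to 10723 at 10 days. Its change of -0.11 had an SE of 0.57 (adjusted p = 0.961), so a change of either direction was not resolved.

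Unnamed genes gave the smallest adjusted p-values. The gene listed as COCehwD007300.1 rose by 1.72 (SE 0.21, edgeR adjusted p = 0.0019), from 2.66 to 5.78 FPKM over the 6 libraries of 6 days to 10.3 to 17.0 over the 4 of 10 days. COCehwD026429.1 rose by 0.89 (SE 0.11, adjusted p = 0.0019). Among genes that fell, COCehwD018273.1 changed by -1.11 (SE 0.15, adjusted p = 0.0039) and COCehwD001399.1 by -0.67 (SE 0.10, adjusted p = 0.006). All 4 had no overlap between the times, and each was called in 18 of the 20 other fits.

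Within the varieties, 6 genes were called in the tall (0.0318% of those tested) and 120 in the dwarf (0.637%), 53 of them higher (0.281%) and 67 lower (0.356%), and none was called in both. With the leaf as a block edgeR called no gene in the tall, where 1287 had an unadjusted p under 0.05, and DESeq2 without the block called 55. In the dwarf the block gave 92 calls (0.488%). Named genes called in the dwarf were the 3 small heat shock proteins, the DnaJ co-chaperone and HOX6 among those that rose. Histone H1.2, acyl transferase 9, adenosylhomocysteinase, a tubulin beta-1 chain (CN01_01G016440, -1.87, adjusted p = 0.036) and NADH-dependent glutamate synthase 1 (CN01_scaffold000561G000020, -1.43, adjusted p = 0.036) fell there. The number of dwarf calls went from 5 without dwarf 10 days replicate 1 and 7 without replicate 2 to 340 without dwarf 6 days replicate 1.

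A larger number of calls in the dwarf did not amount to a tested difference between the varieties. The difference in the change was called for no gene by edgeR (0.0%), with a smallest adjusted p of 0.573, while 1460 genes (7.75%) had an unadjusted p under 0.05, and DESeq2 called 1. The class II small heat shock protein (CN01_scaffold007600G000070) had the smallest p of the named genes for it, with a change of 0.29 in the tall and 2.25 in the dwarf (unadjusted p = 4e-05 and adjusted p = 0.573 in edgeR). A dormancy-associated protein (CN01_contig69359625G000010) had 826, 788 and 847 FPKM in the tall at 6 days and 1311 and 1134 at 10 days, and 1097, 980 and 1661 in the dwarf at 6 days and 513 and 570 at 10 days. It was higher at 10 days in all tall libraries and lower in all dwarf libraries, with an adjusted p of 0.573 in edgeR for the difference. Over all genes tested, 58.0% had the same sign of change in both varieties, and of the 120 genes called in the dwarf 105 (87.5%) had that sign in the tall too. The varieties share the flow cell term, and without it the shares were 56.4% of all genes and 83.7% of the 129 genes then called in the dwarf. Within flow cell AW, where the tall has 1 library of 6 days, they were 48.9% and 49.6%.

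Summed marker levels of 3 cell types were lower at 10 days in every dwarf library, which was not so in the tall. Of the 18840 genes tested, 3000 had both dwarf libraries of 10 days below the 3 of 6 days, and 2872 above. In the tall these numbers were 1661 and 2993. Of the 738 genes with a product name, 199 were below and 125 above in the dwarf, and 86 and 121 in the tall. The 18 mesophyll genes summed to 91106 to 128187 FPKM over the libraries of 6 days and 82759 to 104787 at 10 days. Of these 18, 17 had a negative change and none was called, and the list was expressed at both times. Of 16 genes of dividing or expanding cells, 1 (histone H1.2) fell over both varieties. Their sums were 4554 to 5839 FPKM in the dwarf at 6 days and 3439 to 3588 at 10 days, against 4009 to 4347 and 4224 to 4603 in the tall. The 8 epidermis and cuticle genes summed to 4050 to 5954 FPKM in the dwarf at 6 days and 2285 to 3186 at 10 days, and in the tall to 2727 to 3704 and 3012 to 4307. The 10 vascular and secondary wall genes summed to 694 to 1618 FPKM in the dwarf at 6 days and 587 to 689 at 10 days, and in the tall to 694 to 1656 and 944 to 1103. None of the markers was at 0 in every library of a time. The part of these cell types in the dwarf results above was not tested.

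Both leading groups were followed over the whole time course as summed levels. The 25 heat shock genes summed to 12258 ± 1547 FPKM (SD, n = 3) in the tall at 0 h, 6043 ± 163 at 4 h, 9497 ± 1808 at 6 days and 12723 ± 1479 (n = 2) at 10 days. With the same n, the dwarf had 13528 ± 1493, 5068 ± 350, 9459 ± 2835 and 12985 ± 2896. The 32 flavonoid genes summed to 20242 ± 2951 FPKM in the tall at 0 h, 26070 ± 4140 at 4 h, 26076 ± 4906 at 6 days and 14496 ± 5074 at 10 days. In the dwarf they summed to 14656 ± 4302, 19933 ± 1516, 22419 ± 4109 and 15305 ± 783. At 10 days the mean heat shock sum lay within 1 SD of 0 h in both varieties, as did the flavonoid sum of the dwarf, while the flavonoid mean of the tall was below that of 0 h, and no test was made. Such sums weigh the most abundant genes most.

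**Figure D5:**
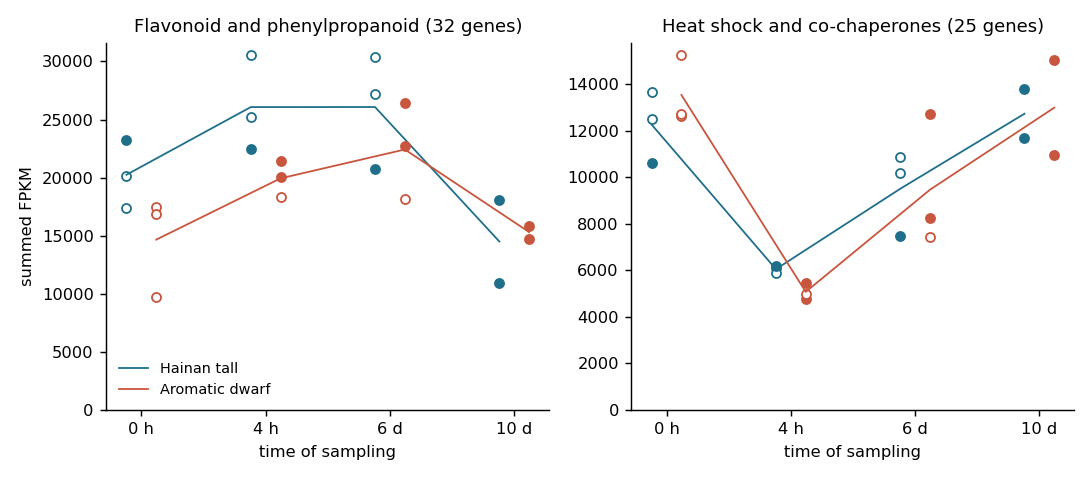
Summed FPKM (vertical axis) of the flavonoid and phenylpropanoid genes (left) and the heat shock and co-chaperone genes (right) in each of the 22 libraries by time of sampling, with lines through the group means; open points are from flow cell AV and filled points from flow cell AW. Flavonoid sums of 10 days lie below those of 6 days in each variety, and heat shock sums of 10 days overlap with those of 6 days in the dwarf.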

How the data were processed

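Single-end RNA-seq was run on 22 leaf samples, whose labels give variety and time. The authors filtered the reads and estimated gene levels with RSEM, which used Bowtie, and mapped reads to scaffolds with BWA. Versions are not given in the sources used here. Each deposited table holds an expected count, as the authors' RSEM estimate, and an FPKM value by the authors. A gene absent from a table was set to 0.

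After rounding of the expected counts, 18840 of 25247 genes passed filterByExpr. The edgeR 4.0.16 quasi-likelihood test (R 4.3.3, TMM scaling) was fitted on all 22 libraries with 8 groups and the flow cell, which left 13 residual degrees of freedom and a common biological coefficient of variation of 24.0%. The contrast was the mean over both varieties of 10 days minus 6 days. In the fits of the 10 libraries or of flow cell AW alone, a time term shared by both varieties took its place. Each variety and the difference between them were further contrasts. The SE was derived from the log2 change and its F statistic. The flow cell term called 6 genes. P-values measure the spread between these leaves only, and the total expected count per library limits the precision of genes with few counts.

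Tested on simulated counts for this contrast (18277 genes), the test recovered 65% of 100 genes changed 2-fold and 100% of 100 changed 4-fold, and 10 of its 175 calls were false. The simulation gave every gene the same biological spread, with no flow cell effect and no shared leaf. Changes were planted only in genes above a minimum mean count. These shares therefore do not measure the recovery or the errors of the test on the real libraries. Replicates had Spearman correlations of 0.938 to 0.964, and no pair agreed within sampling noise (chi-square per gene of at least 5.56).

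The methods state that same-numbered samples share a leaf. Residuals of such pairs correlated at 0.23 on average in the tall (11 of 15 pairs above 0.1) and 0.099 in the dwarf (8 of 15). Pairs of different leaves averaged -0.12 in the tall (5 of 30 above 0.1) and -0.049 in the dwarf (7 of 30). In the dwarf, pairs of different leaves reached 0.48, beside -0.29 to 0.42 for the same leaf, so shared leaves were less clear there. The leaf as a block was therefore an alternative fit.

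Product names, locus tags and pathways came from a supplementary list of the study, of which an incomplete copy with 738 genes was at hand. Coordinates are those of RefSeq for ASM812446v1. The comparison, the lists and the rule for named genes were chosen with earlier results of these data known. By that rule the text names up to 15 called genes a direction that have a product name and average 10 FPKM or more, the top 3 genes of a list by adjusted p, 4 genes that the study discusses, up to 2 unnamed genes a direction, and up to 5 genes for the difference between varieties.

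Alternatives were no flow cell term, the leaf block, the 10 libraries alone, flow cell AW alone, DESeq2 1.42.0, RLE scaling, limma 3.58.1 on log2(FPKM + 1) and log2(FPKM + 0.1), no filter, a minimum of 50 counts throughout a group, a 2-fold change as a further condition, and the removal of each library in turn. Tables were made with Python 3.11.15.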

Additional observations from a re-analysis of the deposited data

How the results depend on the processing

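The 146 calls over both varieties became 327 with no flow cell term, 10 with the 10 libraries alone, 2 with flow cell AW alone, 432 with DESeq2 and 81 with a 2-fold change as a further condition. Leaving out 1 library gave 24 to 271 calls. The libraries whose loss moved the count by over 1.5 times were tall 6 days replicate 1 (96 calls without it), tall 10 days replicates 1 (25) and 2 (93), dwarf 6 days replicates 1 (271) and 2 (53), and dwarf 10 days replicates 1 (48) and 2 (24). In the tall the 6 calls became 0 with the leaf as a block, 0 with the 10 libraries, 0 with flow cell AW, 55 with DESeq2 and 1 with limma at either pseudocount, and 0 to 5 with 1 library left out. In the dwarf the 120 calls became 1 with the 10 libraries, 550 with DESeq2, 54 with limma on log2(FPKM + 1), 207 with at least 50 counts, and 5 to 340 with 1 library left out. The difference between the varieties was called for 0 genes in the reported fit and for 1 with flow cell AW, 1 with DESeq2 and 1 with limma on log2(FPKM + 0.1), and for 0 to 0 with 1 library left out. The smaller fits also had fewer libraries, and the cause of these shifts was not tested.

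The share of genes with the same sign in both varieties was 48.9% within flow cell AW and 56.4% with no flow cell term, a fit chosen after seeing the data, against 58.0%. Beside the tall count, the leaf as a block moved the number of flavonoid genes that fell from 5 to 9, and it left the counts over both varieties, in the dwarf and of heat shock genes within 1.5 times. It lost 2 of 22 called genes named here, the photosystem I subunit and polyubiquitin 11. These 22, which leave out the conserved hypothetical protein of the ABA list, kept their direction in every fit. All 22 stayed called with DESeq2, with RLE scaling and with no filter, while 1 did with the 10 libraries and 2 with flow cell AW. Of the uncalled genes named, AKT2 ranged from -0.084 (without dwarf 6 days replicate 3) to 0.44 with 1 library left out, and the type 3 metallothionein turned to 0.21 with no flow cell term, 0.49 with the leaf block, 0.33 with the 10 libraries, 0.49 with flow cell AW, 0.32 with limma at either pseudocount, and ranged from -0.55 to 0.46 with 1 library left out, positive without tall 6 days replicate 3 or dwarf 6 days replicate 1. The list counts under each fit were added after seeing the data.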
